A study of Mus musculus with 4 samples.

Results

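The genes described here are 27 synaptic and neuronal genes of the kind that the repressor REST keeps silent outside the nervous system, with Rest itself and its partners Rcor1 and Rcor2. They were chosen by symbol, as 30 of the 23337 gene rows in the count table, and all 30 symbols had a row. The list was drawn up with results of this same comparison in view. The differences between genotypes given below are therefore a description of these libraries, and no support for the choice. RNA was sequenced from mouse cardiac cushions at embryonic day 14.5 (strain C57BL/6), the tissue in the outflow tract and atrioventricular canal from which the valves form. Wildtype embryos gave 2 libraries, as did Nfatc1Cre;Brg1F/F embryos, called mutant here, in which Cre from the Nfatc1 locus, active in endocardium, deletes Brg1, the motor subunit of SWI/SNF chromatin remodellers. Cushions were dissected by the GFP of a Cre reporter. The labels do not state whether the wildtype embryos carried the Cre. Nor do they state whether a library came from 1 embryo or a pool, so p-values measure only the spread between libraries, which may be technical.

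REST is a zinc finger protein that binds a DNA element called RE1 and holds neuronal genes off in cells that are not neurons. It recruits the corepressors CoREST, encoded by the Rcor genes, and SIN3, which bring histone deacetylases and the demethylase LSD1. BRG1 is also known as a partner of the REST complex. In heart muscle REST is known to restrain fetal cardiac genes such as Nppa.

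Matches to the canonical RE1 motif, 17 positions long and searched on both strands, were found near the start of 6 of the 30 genes. Their sequences are shown because they are the element through which REST is known to act. The 5 printed below are given on the strand that matches, with the match in capitals, 6 flanking bases on each side in lower case and, inside the match, a base that departs from the motif in lower case. A 300-base RefSeq promoter window (GRCm38.p6, 250 bases before the start and 50 after it) was at hand for 23 of the 30 genes. Gria2 had an exact match there, and Celsr3 and Syn1 a match with 1 mismatch.
Gria2, chr3:80802989-80803005, plus strand: ttcgatTTTAGCACCGCGGACAGcgcttt
Celsr3, chr9:108825918-108825934, plus strand: gctccgTTCAGCACCGTGGgCAGcacttc
Syn1, chrX:20921134-20921150, minus strand: gtcggaTTCAGCACCGCGGtCAGagcctt
Bdnf, chr2:109676045-109676061, plus strand: agtccaTTCAGCACCTTGGACAGagccag
Grin1, chr2:25319018-25319034, minus strand: atacgcTTCAGCACCTCGGACAGcacccg

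The Bdnf and Grin1 sites come from the first 300 bases of GENCODE M21 protein-coding transcripts, where Syt4 also had an exact match. All 3 lie before the coding start, in the 5′ untranslated region. Of all genes with a promoter window, 0.0777% held an exact match (21 of 27025) and 1.15% a match with at most 1 mismatch. Of 21746 genes with such a transcript, 0.290% held an exact match in its first 300 bases (63 genes, 28 of them of the Btbd35f family). The other 24 genes, Disp2 and Cacna1b among them, had no match in the windows searched. Promoter windows were searched with up to 1 mismatch, but transcripts for exact matches only. Disp2 had only its transcript to search, so a site with 1 mismatch was not looked for in it, nor in the other genes without a promoter window. For GC content and CpG count the highest value over the promoter windows of each gene was taken. The 21 neuronal genes with a window had medians of 60.7% GC and 22 CpG. All protein-coding genes with a window had medians of 57.3% and 15.

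Across the series, 14104458 to 22426537 reads per library fell in genes, and 3 reads, taken as the counting floor, correspond to 0.132 to 0.212 CPM (gene reads scaled to library size with TMM). This floor covers counting error only. Smarca4, the gene of BRG1, measured 251 and 231 CPM in the wildtype libraries 1 and 2 against 282 and 239 in the mutant libraries 1 and 2, so counts over the whole gene show no fall that would check the genotype labels. All 8 markers of endocardium, all 8 of cushion mesenchyme and all 8 of heart muscle on the lists were expressed above the low-count filter. Xist had 189 reads in mutant replicate 2 and 36708 to 60417 in the other libraries, so that library differs from the rest in sex-linked transcripts. Ddx3y, on the Y chromosome, had 3384 reads in mutant replicate 2 and 28 in wildtype replicate 2. It had 0 reads in wildtype replicate 1 and in mutant replicate 1. The mutant and wildtype libraries numbered 2 thus differ in sex-linked transcripts as well as in genotype. Of the neuronal genes, Syp, Syn1 and L1cam lie on the X chromosome.

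The repressor was the most abundant of the genes. Rest (chromosome 5, 77265491 to 77286432, GRCm38) measured 121 and 120.1 CPM in the wildtype libraries 1 and 2 against 134 and 112 in the mutant libraries 1 and 2. Its log2 fold change, mutant over wildtype here and throughout, was 0.02 ± 0.13 (SE), smaller than the spread between the mutant libraries. Rcor1, the main CoREST scaffold, measured 53.7 and 52.1 CPM in wildtype against 64.9 and 55.6 in mutant, a log2 fold change of 0.19 ± 0.14, with both mutant libraries above both wildtype libraries. Rcor2, a second CoREST protein, measured 26.4 and 19.7 CPM in wildtype against 27.3 and 26.4 in mutant, with overlapping groups and a log2 fold change of 0.22 ± 0.18. None of these 3 genes passed the edgeR quasi-likelihood test at 0.05 after adjustment.

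Of the further REST corepressors and regulators, 21 of 21 genes were fitted and 0 passed the threshold in either direction; 0 were past an unadjusted p under 0.05, and DESeq2 and the fit with the replicate block called 0. Their median log2 fold change was 0.01, beside -0.0027 over all 14316 genes fitted. Usp7, a deubiquitinase that stabilises REST, had a log2 fold change of 0.08 ± 0.12, and Smarca4 had 0.11 ± 0.14. Kdm1a, the LSD1 demethylase, measured 128 to 133 CPM in the 4 libraries.

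The neuronal genes were expressed at low levels. On the RPKM scale, CPM per kilobase of exon, their median wildtype level was 0.238. The median over all fitted genes with an annotated length was 5.16, and 25 of the 27 lay under it. Over all 20929 rows with such a length, fitted or not, the median was 1.17. The 27, of which 7 were not fitted, stood at a median percentile of 39.1 among those rows. Rest stood at a mean of 16.7 RPKM in wildtype, Rcor1 at 9.31 and Rcor2 at 7.30. Syt11 and Sv2a had the highest wildtype levels of the 27, at 5.43 and 5.22 RPKM, and Grin1 the lowest, at 0.00549 RPKM. In wildtype, 20 of the 27 were under 1 RPKM and 7 under 0.1 RPKM. In bulk tissue, fewer cells of a type and less RNA per cell cannot be told apart.

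**Figure D1:**
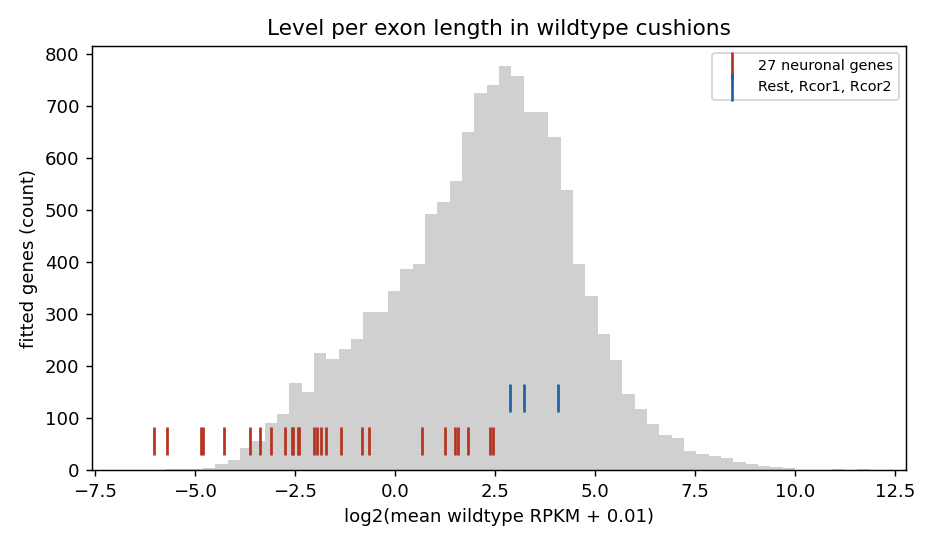
Mean wildtype level per exon length, as log2(RPKM + 0.01) on the x axis, for all fitted genes (grey histogram, number of genes on the y axis), the 27 neuronal genes (red ticks) and Rest, Rcor1 and Rcor2 (blue ticks). The red ticks reach up to 5.43 RPKM for Syt11, and the blue ticks lie above all of them, from 7.30 to 16.7 RPKM.

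The low-count filter left 20 of the 27 neuronal genes for the fit. Disp2 and Bdnf, each with fewer than 2 wildtype libraries over the filter, passed it through their mutant libraries, so counts over the fitted genes are no support for a direction. The 7 genes below the filter had 0 to 17 reads in a library. Grin1, an NMDA receptor subunit, had 2 and 0 reads in wildtype libraries 1 and 2 against 12 and 1 in mutant libraries 1 and 2. Syn1, the vesicle protein synapsin, had 2 and 1 reads in wildtype and 9 and 1 in mutant. Stmn3, a stathmin that binds tubulin, had 1 and 3 reads in wildtype and 8 and 1 in mutant. In these 3 genes mutant replicate 1 alone stood above the other libraries.

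Celsr3, a cadherin of axon guidance, had 3 and 1 reads in wildtype and 7 and 5 in mutant. Cplx1, a complexin that clamps vesicle fusion, had 11 and 8 reads in wildtype and 6 and 1 in mutant. The groups do not overlap in either gene, but with so few reads no difference was detectable at this depth. Gad1, the enzyme that makes GABA, and Nrxn2, a presynaptic adhesion protein, had 3 to 17 reads in each library. Of the genes with an RE1 match, Grin1, Syn1 and Celsr3 were thus below the filter.

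**Figure D2:**
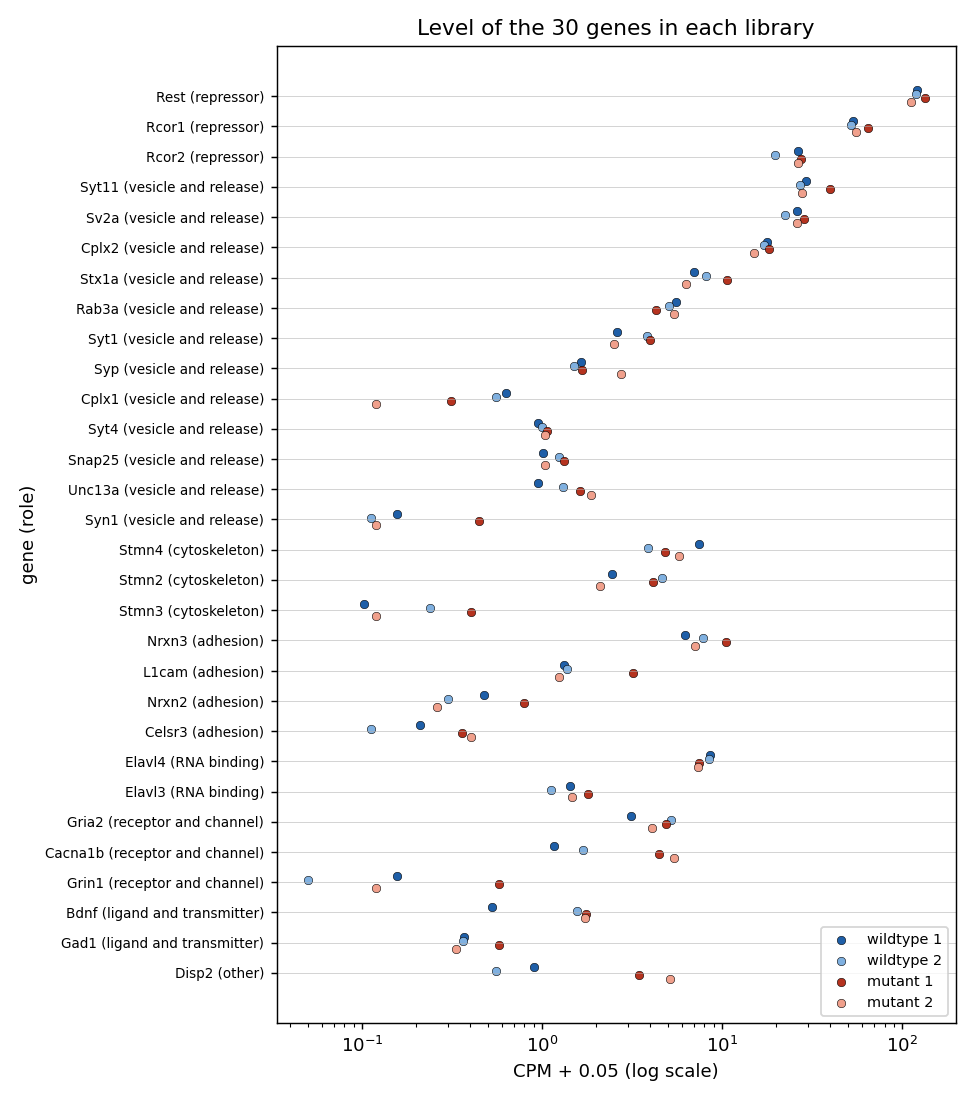
Level of each of the 30 genes, as CPM + 0.05 on a logarithmic x axis, with 1 row per gene and 1 point per library (dark and light blue for wildtype 1 and 2, dark and light red for mutant 1 and 2). For Disp2 and Cacna1b both red points stand well to the right of both blue points, while Rest lies at 112 to 134 CPM in all 4 libraries.

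The mutant libraries were set against the wildtype ones to ask what loss of Brg1 from the endocardial lineage does to cushion transcripts. Disp2 and Cacna1b had the largest differences of the neuronal genes, and the other 18 fitted genes lay between log2 fold changes of -0.21 and 0.80. Disp2 (chromosome 2, 118779719 to 118811293), a transmembrane protein of the dispatched family, measured 0.852 and 0.505 CPM in the wildtype libraries 1 and 2 against 3.43 and 5.08 in the mutant libraries 1 and 2. These are 16 and 8 reads against 78 and 72, and the groups do not overlap. The mean was 0.678 ± 0.245 CPM in wildtype and 4.26 ± 1.17 CPM in mutant (SD, n = 2 libraries each), a fitted ratio of 6.08 and a log2 fold change of 2.60 ± 0.41. It was 1.88 between the libraries numbered 1 and 3.07 between those numbered 2.

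Cacna1b (chromosome 2, 24603887 to 24763152), the pore subunit of the N-type calcium channel that triggers transmitter release, measured 1.12 and 1.64 CPM in wildtype against 4.45 and 5.37 in the mutant libraries 1 and 2. Both mutant libraries again stood above both wildtype libraries. The mean was 1.38 ± 0.369 CPM in wildtype and 4.91 ± 0.652 CPM in mutant (SD, n = 2 libraries each), a fitted ratio of 3.55 and a log2 fold change of 1.83 ± 0.33. The log2 ratio was 1.89 in pair 1 and 1.64 in pair 2. Per exon length Disp2 reached 0.359 and 0.532 RPKM in the mutant libraries and Cacna1b 0.447 and 0.540 RPKM, so both stayed low beside most fitted genes.

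Of the 23 fitted genes of the list, 0 passed 0.05 after Benjamini-Hochberg adjustment in the edgeR quasi-likelihood fit, beside 0.0629% of all genes. Limma-voom also called 0, beside 0.0489%. The adjusted p in the edgeR fit was 0.0850 for Disp2 and 0.133 for Cacna1b. At an unadjusted p under 0.05 these 2 neuronal genes were higher and 0 were lower, beside 3.88% and 1.9% of all genes. Taking the replicate number as a block, which reads the libraries as the pairs the series describes, both rose, with adjusted p of 0.00129 and 0.00646 in edgeR, beside 0.887% of all genes called. DESeq2 also called both, beside 0.426%. Since the list was proposed with this comparison known, nothing is read from these shares.

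The calls of Disp2 and Cacna1b moved with the settings. Both were called by the edgeR likelihood ratio test, beside 1.19% of all genes, and without a low-count filter, beside 1.18%. Both were also called without mutant replicate 1, beside 1.14%, and without mutant replicate 2, beside 2.77%. DESeq2 with the block called Disp2 alone, beside 0.21%. No gene of the list was called with RLE scaling, beside 0.0629%, or with a filter of CPM 5, beside 0.0813%, which left out both genes. No gene of the list was called without wildtype replicate 1, beside 0.0279%, or without wildtype replicate 2, beside 0%. In the authors' deposited table, 9 of the 27 neuronal genes, Rest, Rcor1 and Rcor2 have a row, with 0 of these 12 past 0.05, beside 0.374% of its genes. The authors' deposited table has no row for Disp2 or Cacna1b.

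Among the vesicle and release genes, Syt11, an atypical synaptotagmin of vesicle trafficking, measured 29.4 and 27.1 CPM in wildtype against 40.0 and 27.8 in mutant. Sv2a, a glycoprotein of synaptic vesicles, measured 26.1 and 22.3 CPM in wildtype against 28.5 and 25.9 in mutant. Cplx2, a complexin, measured 17.7 and 17.1 CPM in wildtype against 18.2 and 15.0 in mutant. In these 3 most abundant neuronal genes the groups overlapped and the log2 fold changes lay between -0.07 and 0.27.

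Stx1a, a SNARE protein of the plasma membrane, measured 6.92 and 8.08 CPM in wildtype against 10.7 and 6.29 in mutant, with mutant replicate 1 highest and mutant replicate 2 lowest. Syt1, the calcium sensor of fast release, showed the same order at its ends, with 2.56 and 3.79 CPM in wildtype against 3.92 and 2.47 in mutant. Snap25, another SNARE protein, measured 0.959 and 1.20 CPM in wildtype against 1.28 and 0.989 in mutant. For all 3 the log2 ratio was above 0 in pair 1 and below 0 in pair 2, so the mutant libraries differed more from each other than the genotypes did.

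Rab3a, a small GTPase of synaptic vesicles, measured 5.54 and 5.05 CPM in wildtype against 4.27 and 5.37 in mutant, with overlapping groups. Unc13a, which primes vesicles, measured 0.905 and 1.26 CPM in wildtype against 1.58 and 1.84 in mutant, a log2 fold change of 0.66 ± 0.40. Syp, the vesicle protein synaptophysin, measured 1.60 and 1.45 CPM in wildtype against 1.63 and 2.68 in mutant. The mutant libraries of Unc13a and Syp lay above the wildtype ones, but for Syp almost all of the difference came from mutant replicate 2, at a log2 ratio of 0.84 in pair 2 and 0.03 in pair 1. Syt4, a synaptotagmin that does not act as a fast calcium sensor, measured 0.905 and 0.947 CPM in wildtype against 1.01 and 0.989 in mutant, a difference below the counting floor.

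Of the stathmins, which bind tubulin in growing neurites, Stmn4 measured 7.46 and 3.85 CPM in wildtype against 4.75 and 5.72 in mutant. Stmn2 measured 2.40 and 4.61 CPM in wildtype against 4.09 and 2.05 in mutant. The spread within each genotype was wider than the difference between genotypes for both, and their pair ratios had opposite signs: -0.64 and 0.56 for Stmn4, and 0.75 and -1.13 for Stmn2, in pairs 1 and 2.

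Among adhesion genes, Nrxn3, a presynaptic neurexin, measured 6.18 and 7.76 CPM in wildtype against 10.5 and 7.06 in mutant. L1cam, an axonal adhesion protein, measured 1.28 and 1.33 CPM in wildtype against 3.17 and 1.20 in mutant. In both genes mutant replicate 1 stood above the other 3 libraries. Mutant replicate 2 lay between the wildtype libraries for Nrxn3 and below both for L1cam, so neither gene had mutant libraries both on 1 side. The log2 ratio for L1cam was 1.24 in pair 1 but -0.13 in pair 2. Its log2 fold change with mutant replicate 1 left out was -0.11.

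Elavl4 and Elavl3 encode neuronal proteins that bind and stabilise RNA. Elavl4 measured 8.57 and 8.39 CPM in wildtype against 7.39 and 7.27 in mutant, and was the fitted gene of the list whose mutant libraries both lay below the wildtype ones, at a log2 fold change of -0.21 ± 0.20. Elavl3 measured 1.38 and 1.07 CPM in wildtype against 1.76 and 1.41 in mutant, at 0.37 ± 0.39. For Elavl3 the difference was smaller than its error, and neither gene passed the test.

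Gria2, the AMPA receptor subunit that limits calcium entry, carried the exact RE1 match in its promoter window. It measured 3.09 and 5.17 CPM in wildtype against 4.84 and 4.03 in mutant, with the mutant libraries between the wildtype ones and a log2 fold change of 0.12 ± 0.31. Bdnf, the neurotrophin with the RE1 match in its 5′ untranslated region, measured 0.479 and 1.51 CPM in wildtype against 1.72 and 1.69 in mutant. Its log2 fold change of 0.80 ± 0.52 rested on the 9 reads of wildtype replicate 1: without that library it was 0.17, and without wildtype replicate 2 it was 1.82. Gria2, Bdnf and Syt4, the genes with an RE1 match that could be fitted, were called in none of the fits named above.

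**Figure D3:**
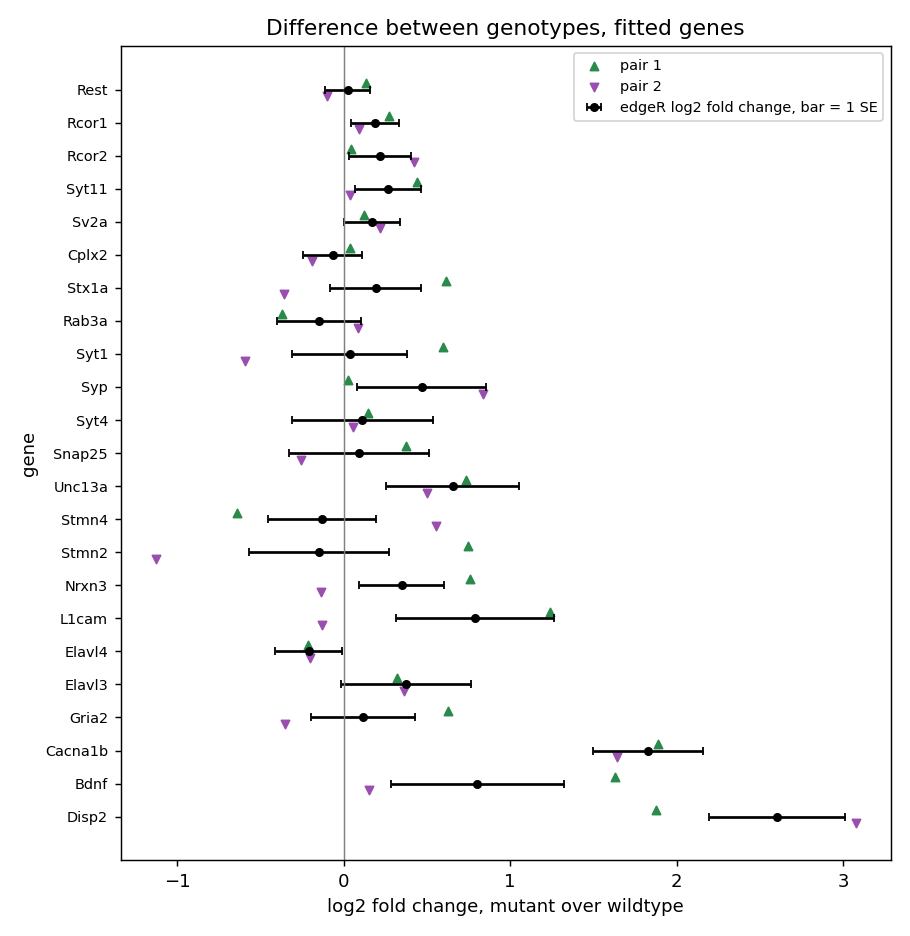
Log2 fold change, mutant over wildtype, on the x axis for the 23 fitted genes, 1 row per gene; black points with bars are the edgeR estimate ± 1 SE, and triangles the log2 ratio in pair 1 (upward, green) and pair 2 (downward, purple). Disp2 at 2.60 and Cacna1b at 1.83 stand apart with both triangles above 1.5, while for genes such as Stmn2 and Syt1 the triangles lie on opposite sides of 0.

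Over the 20 fitted neuronal genes the median log2 fold change was 0.18, beside -0.0027 over all genes fitted, and it was 0.14 without Disp2 and Cacna1b. Pair 1 gave a median of 0.52 and pair 2 gave 0.05; leaving out mutant replicate 1 brought it to 0.01. Values above 0 were found for 15 of the 20 genes, beside 49.5% of all genes, and for 17 in pair 1 and 11 in pair 2. Mutant replicate 1 held the highest level of the 4 libraries for 11 of the 20 genes, beside 29.6% of all fitted genes. The mutant libraries both lay above the wildtype libraries for 7 of the 20, beside 17% of all genes, and both below for 1, beside 16.3%. A log2 fold change above 1 was seen for 2 of the 20 genes, beside 2.04% of all genes, and below -1 for 0, beside 0.545%.

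**Figure D4:**
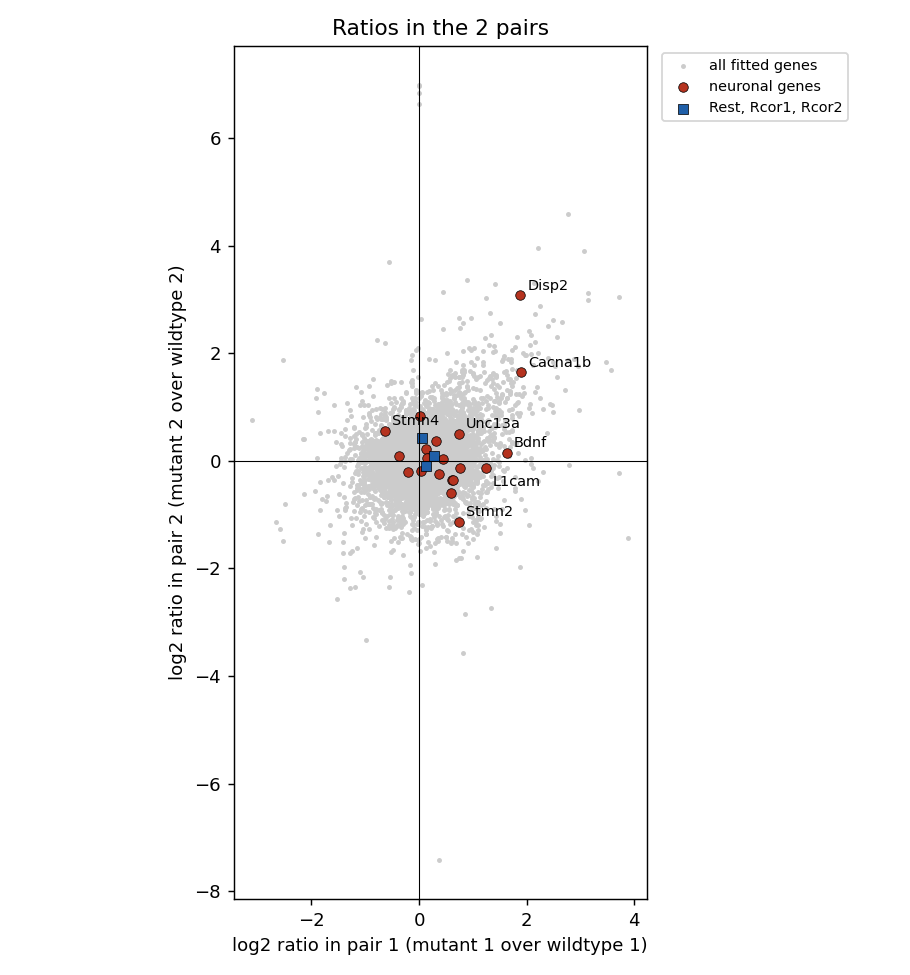
Log2 ratio of mutant to wildtype in pair 1 (x axis) and in pair 2 (y axis), from log2 CPM with a prior count of 2, for all fitted genes (grey), the 20 fitted neuronal genes (red circles) and Rest, Rcor1 and Rcor2 (blue squares). Disp2 and Cacna1b lie in the upper right, while Bdnf and L1cam lie far to the right but close to 0 in pair 2.

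Other neuronal genes of the same type, from a list of 31 that does not hold the genes above, were read beside them. Of these, 18 were fitted, 0 passed in the fit without the block, 3 lay higher and 0 lay lower at an unadjusted p below 0.05 (all genes 3.88% and 1.9%), and the median log2 fold change was 0.30. Dnm1, the endocytic GTPase of synapses, measured 8.73 and 11.04 CPM in wildtype against 17.3 and 6.92 in mutant. Its groups overlapped, with mutant replicate 1 highest and mutant replicate 2 lowest.

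With the replicate block 2 of these genes passed, beside 0.887% of all genes, Scg3 and Mapk8ip2, named here after their values were seen. Scg3, a granin of secretory granules, measured 0.799 and 0.884 CPM in wildtype against 3.96 and 6.50 in mutant, and rose in the blocked edgeR fit (adjusted p 4.01e-04, without the block 0.0654). Mapk8ip2, a scaffold of the JNK pathway, measured 0.266 and 0.379 CPM in wildtype against 1.496 and 1.84 in mutant, and rose in the blocked edgeR fit (adjusted p 0.0241, without the block 0.179). Mapk8ip2 lay under the filter in both wildtype libraries and passed it through its mutant libraries, so its call is no support for a direction. The groups do not overlap in either gene. DESeq2 called Scg3 and not Mapk8ip2.

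Cardiac genes of the REST-repressed type, 7 of 8 fitted, had a median log2 fold change of -0.14 and 0 calls without the block. Nppa, atrial natriuretic peptide, measured 549.8 and 419 CPM in wildtype against 214 and 244 in mutant, a log2 fold change of -1.08 ± 0.16, and fell in the blocked edgeR fit (adjusted p 0.00246, without the block 0.0683). DESeq2 called it too. Cacna1h, a T-type calcium channel, measured 70.6 to 76.7 CPM in the 4 libraries, with a log2 fold change of 0.01. Of the 7 fitted genes of this list 2 had log2 fold changes above 0, beside 49.5% of all genes. Of the 8 heart muscle markers 0 did, with a median of -0.17. The summed level of these 8 was 62201 to 69111 CPM in wildtype and 54788 to 59752 CPM in mutant. Nppa thus lay lower in the mutant libraries, as did this sum, while Disp2 and Cacna1b lay higher. Whether these values are linked was not tested.

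Markers of other cells were read beside these values. Of 20 autonomic neuron markers 7 were fitted, 0 passed without the block, and 5 of the 7 had log2 fold changes above 0, with a median of 0.35. At an unadjusted p below 0.05, 2 lay higher and 1 lower. The summed level of the list was 96.3 to 112 CPM in wildtype and 116 to 146 CPM in mutant. Most of that sum came from genes that are not limited to neurons: Ddc, which makes catecholamine precursors, had 30.4 to 65.1 CPM and Uchl1, a ubiquitin hydrolase, 28.02 to 46.0 CPM. The defining genes Phox2a, Th and Insm1 had at most 3 reads in any library. Slc18a2, the vesicular monoamine transporter, measured 6.76 and 7.57 CPM in wildtype against 2.77 and 3.25 in mutant (edgeR adjusted p 0.173, with the block 0.0334), and is named after its values were seen. Uchl1, at a log2 fold change of 0.49, and Gata3, a transcription factor of sympathetic neurons, at 1.11, were the 2 that lay higher. For Gata3 the groups overlapped, at 1.01 and 2.27 CPM in wildtype against 4.67 and 2.19 in mutant, with mutant replicate 1 highest.

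Of 12 glial and neural crest markers 6 were fitted and 0 passed with or without the block, and their summed level was 32.9 to 35.2 CPM in wildtype and 34.4 to 35.1 CPM in mutant. Sox10 had at most 3 reads and Foxd3 had 0 reads in each library, and the most abundant marker, Erbb3, had a log2 fold change of -0.02. Of 17 leukocyte markers 16 were fitted and all 16 had values above 0; their summed level was 106 to 112 CPM in wildtype and 219.7 to 223 CPM in mutant. The most abundant, Csf1r and Lyz2, had log2 fold changes of 0.99 and 0.15. Ptprc, the pan-leukocyte antigen CD45, measured 6.71 and 7.51 CPM in wildtype against 29.4 and 26.1 in mutant. In that list Ptprc, Mpeg1 and Cybb rose, with edgeR adjusted p of 0.0119, 0.0252 and 0.0351. Of 12 hepatocyte markers 6 were fitted, with a summed level of 24.9 to 25.6 CPM in wildtype and 33.8 to 47.7 CPM in mutant. Trf, which encodes transferrin, was the most abundant of them at 14.6 to 24.4 CPM and the largest part of that sum. Of the 6, 4 had log2 fold changes above 0 and the median was 0.45, with Ahsg, a plasma glycoprotein, at -0.50 and Ttr at -0.08. Apoa1, below the filter, had 7 and 10 reads in wildtype against 7 and 8 in mutant. With the block Alb and Afp rose (edgeR adjusted p 0.0176 and 0.0275, without the block 0.264 and 0.305). Alb, serum albumin, stood at 1.92 and 0.694 CPM in wildtype against 3.65 and 8.12 in mutant. The summed leukocyte and hepatocyte levels were thus higher in the mutant libraries, as those of Disp2 and Cacna1b were, and their part in those values was not tested.

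**Figure D5:**
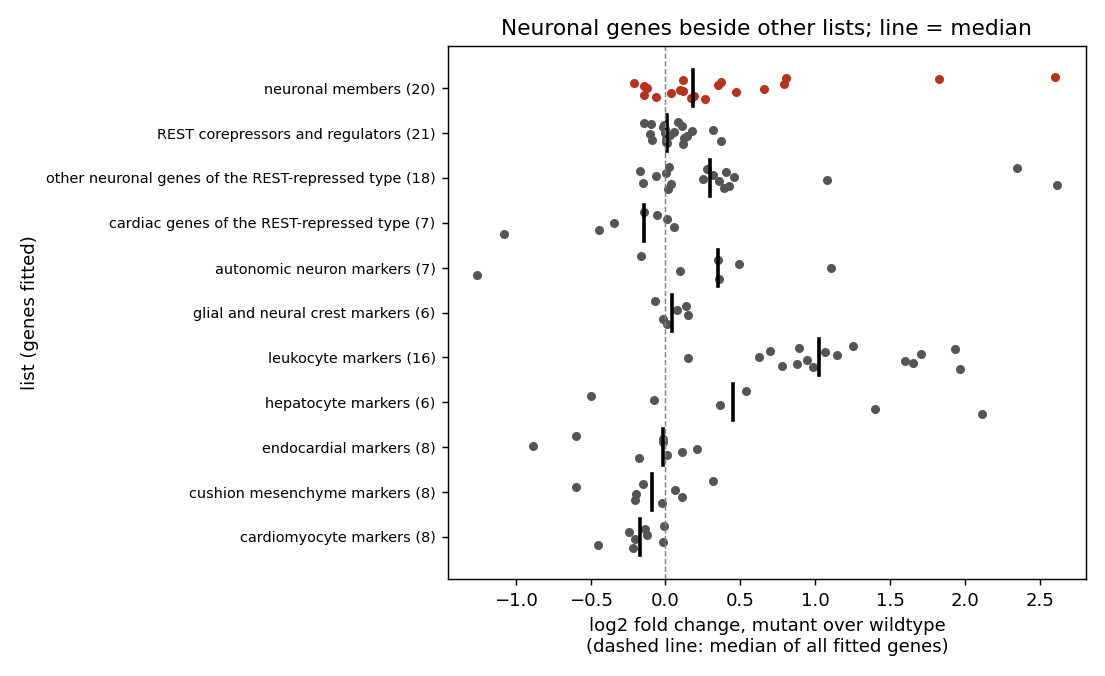
Log2 fold change, mutant over wildtype, on the x axis for the 20 fitted neuronal genes (red) and the fitted genes of 10 other lists (grey), 1 point per gene, 1 row per list, with the list's median as a black line and the median of all fitted genes as a dashed line. All 16 leukocyte genes lie to the right of 0, with a median of 1.03, while the neuronal row has its median at 0.18 and 2 genes, Disp2 and Cacna1b, far to the right.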

How the data were processed

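The authors deposited a table of raw read counts per gene symbol for 4 libraries and a second table, their edgeR results, holding log2 fold changes, a likelihood ratio score, p-values and a fold ratio. The tools were TopHat2, Bowtie2, HTSeq, SAMtools and edgeR on build mm10, per the submitters' processing notes. Their versions, the gene annotation and whether counting used strand are not given here, so overlapping genes cannot be told apart. Reads outside any gene (51.8% to 54.4% of the tally), at several places (16.1% to 17.0%) or ambiguous (0.187% to 0.210%) stayed out. The sign of the authors' fold changes was turned to mutant over wildtype.

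The deposited counts went into edgeR 4.0.16 (R 4.3.3) with TMM scaling, filterByExpr (14316 genes left), the quasi-likelihood F test for genotype without a block, and Benjamini-Hochberg adjustment over all genes at 0.05. Standard errors were the fold change divided by the root of F. RPKM used the exon length of GENCODE M21 (20929 of 23337 rows matched). The motif search used RefSeq promoter windows; a wider search around gene starts, which needs a genome, was not run, and the search of GENCODE transcripts was added in its place. The series describes 2 pairs of mutants and littermates. Deviations of same-numbered libraries had a correlation of 0.144 over genes (not independent of each other), and with the series' own words the numbers were read as pairs. Alternatives were the replicate block, RLE scaling, no filter, CPM of 5 in 2 libraries, DESeq2 1.42.0, the likelihood ratio test, limma-voom (limma 3.58.1) and each library left out. The fits were also run on simulated counts, with the same dispersion for every gene and no difference between pairs. That run therefore cannot decide between the fits with and without the block.

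The members and lists were chosen with earlier results of these data known. The rule for naming genes took Rest, Rcor1, Rcor2 and neuronal genes at 1 CPM in 2 libraries or called with or without the block, and from each list its called genes and, where these were under 2, its 2 genes of highest level. Other genes were named after their values were seen. Some genes the rule takes are not reported here. Genes of the endocardial, mesenchyme and heart muscle lists are only counted, with a median and a summed level given for heart muscle.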

Additional observations from a re-analysis of the deposited data

How the results depend on the processing

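The count of 0 genes of the list past the threshold became 2, Disp2 and Cacna1b each time, with the replicate block, without a low-count filter, with DESeq2 and with the edgeR likelihood ratio test, and 1, Disp2, with DESeq2 and the replicate block, a setting chosen after seeing the data. The replicate block changed no other call of the list. Leaving out 1 library gave 0 to 2 calls, 2 without either mutant library and 0 without either wildtype library; the single library left in a group is taken to be as variable as the other group. RLE scaling, limma-voom and the filter of CPM 5, which left 11 of the 30 genes and neither of these 2, gave 0. The cause of these differences was not tested. The median over the neuronal genes ranged from 0.01 to 0.32 with 1 library left out, and was 0.16 with the replicate block, 0.35 without a filter over all 27 genes and 0.06 with the filter of CPM 5 over 8 genes. Disp2 ranged from 2.30 to 3.05 and Cacna1b from 1.57 to 2.12 over 10 settings; 11 of the 23 fitted genes, Rest among them, had both signs over the settings tried. With the replicate block 1 residual degree of freedom is left, and 2 without it. Genes with under 3 reads in a library cannot be compared at this depth.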
